A study of Homo sapiens with 6 samples.

Results

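Death receptors are cell-surface members of the tumour necrosis factor (TNF) receptor family, and the genes examined here encode 5 such receptors or their close relatives and 5 proteins that act directly beneath them. The 10 genes were chosen by symbol among 60611 genes: FAS, TNFRSF1A, TNFRSF1B, TNFRSF10A and TNFRSF10B for the receptors, FADD and RIPK1 for an adaptor and a kinase, and CASP8, CASP10 and CFLAR for the initiator caspases and their regulator. Their RNA was sequenced from EndoC-BH5, an established line of human pancreatic beta cells labelled WT, in 3 libraries of cells given interferon gamma together with interleukin 1 beta (cytokine) and 3 libraries of cells given vehicle. The sources used here give neither the doses nor the length of exposure. The labels number the replicates without saying whether they are separate cultures of the 1 line, so a p-value reflects only how far these samples vary, which may be technical variation.

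When a ligand such as FASLG, TNF or TNFSF10 (TRAIL) binds a death receptor, an intracellular death domain gathers adaptor proteins. FADD then recruits caspase-8 and caspase-10, which cut themselves and downstream caspases to start apoptosis. CFLAR, a caspase-8 relative without catalytic activity, limits or tunes that step, and RIPK1 steers TNF receptor signals either to NF-kappaB and survival or to cell death. In pancreatic islets, inflammatory cytokines and death receptor signals are studied as routes of beta-cell loss in autoimmune diabetes.

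Total counts ranged from 5871481 in vehicle replicate 1 to 16175364 in cytokine replicate 1, and vehicle replicate 1 was the shallowest library. Levels are in CPM, each gene's share of its library, after scaling with TMM, which sets the libraries to a common scale through the bulk of their genes. A log2 change compares cytokine with vehicle and carries its standard error (SE). Its p-value comes from edgeR's quasi-likelihood test, with Benjamini-Hochberg adjustment over the 17847 genes tested. All 8 beta-cell markers examined were detected, and 3 rose while 5 fell: INS, PDX1, MAFA, SLC30A8 and G6PC2 were lower and IAPP, CHGA and NKX6-1 higher. The smallest log2 changes were -0.14 for INS, whose groups overlapped, and 0.12 for NKX6-1 (edgeR, adjusted p = 0.0092 and 0.0274). The summed level of the 8 markers, mostly CHGA, IAPP and INS, was 30215 to 30999 CPM in cytokine libraries and 20292 to 21422 CPM in vehicle libraries. The 5 alpha- and delta-cell markers summed to 2452 to 2648 CPM in cytokine and 2393 to 2618 CPM in vehicle libraries, with GCG lower and no other call. The 4 duct markers summed to 136 to 147 CPM in cytokine and 152 to 172 CPM in vehicle libraries, with KRT19 lower, MUC1 higher, and SPP1 and CFTR below 1 CPM. Of 5 exocrine markers 4 stayed below 1 CPM and CPA1 did not pass. The 4 endothelial markers stayed below 1 CPM in every library. So did 5 of 6 leukocyte markers, with CD3D at 0. CD68, which macrophages express, made up nearly all of the leukocyte sum, with 21.4 ± 0.781 CPM in cytokine and 5.14 ± 0.374 CPM in vehicle libraries (SD, n = 3 each). The part of other cell types in the results below was not tested. In bulk RNA, fewer cells of a type and less RNA per cell cannot be told apart.

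Of the 10 genes, 8 had enough counts to be tested and 7 of these rose with cytokines, while none fell. FAS changed most, followed by CASP8, CASP10 and TNFRSF1A, and the changes of TNFRSF10B, CFLAR and RIPK1 were each under 2-fold. FADD did not pass, and TNFRSF1B and TNFRSF10A lay below the filter. Among all tested genes 57.1% passed in either direction, 28.3% were higher and 28.8% lower. The same 7 members rose with libraries scaled by size alone, where 16.7% of all tested genes were higher and 49.2% lower, 65.9% in either direction. They also rose at a threshold of 0.01, where 47.6% of all tested genes passed in either direction. The median log2 change of the 8 tested members was 1.68, against -0.02 over all tested genes. The cytokine libraries lay above all vehicle libraries in 7 of the 8 tested members, which was so in 30.3% of tested genes. A gene near 0 in vehicle passed the filter only through its cytokine libraries, so these counts describe the set and support nothing further.

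**Figure D1:**
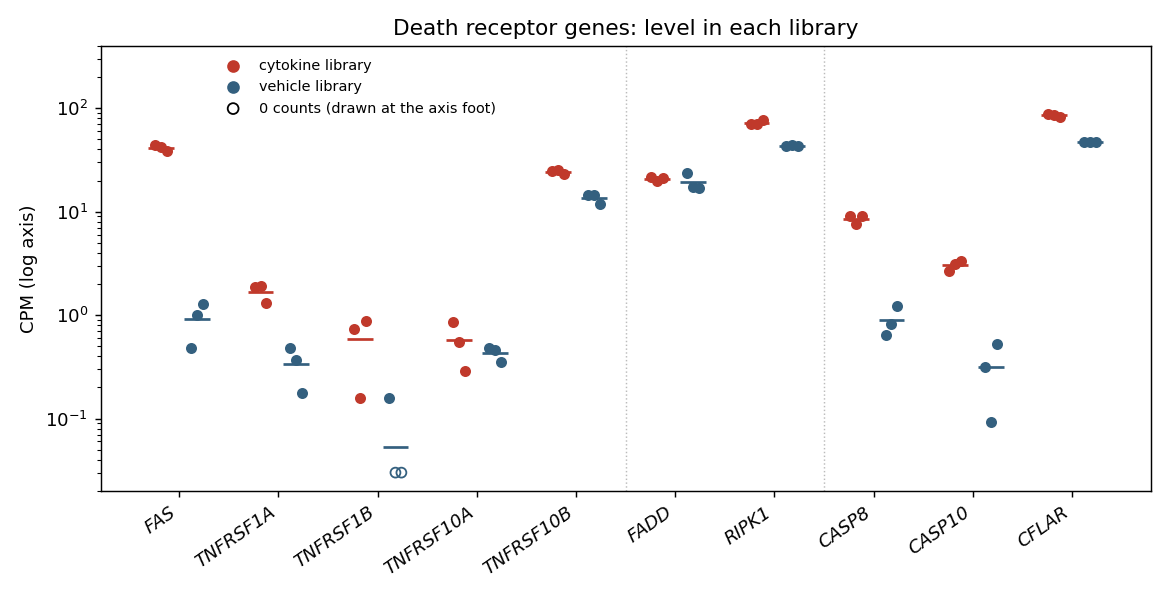
Level of each member in CPM on a log axis, with 1 point per library, cytokine libraries left and vehicle libraries right for each gene, and a bar at the group mean. FAS, TNFRSF1A, TNFRSF10B, RIPK1, CASP8, CASP10 and CFLAR show no overlap between groups, while TNFRSF10A and FADD do. TNFRSF1B overlaps only because its CPM rests on rounded counts, and 2 vehicle libraries had 0 counts of it.

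**Figure D2:**
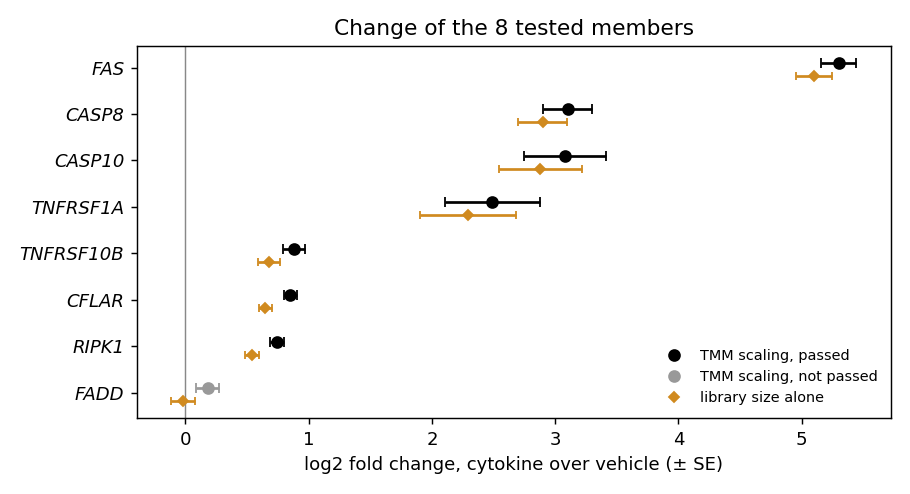
Log2 fold change of cytokine over vehicle with SE for the 8 tested members, under TMM scaling (circles) and scaling by library size alone (diamonds). FAS leads at 5.30, CASP8, CASP10 and TNFRSF1A lie between 2.49 and 3.10, TNFRSF10B, CFLAR and RIPK1 lie between 0.74 and 0.88, and FADD is at 0.18 with TMM and -0.02 with library size alone.

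RefSeq promoter windows, 250 bases before to 50 bases after a gene start on GRCh38.p14, were found for 7 members, in 16 windows since several have more than 1 start. They were searched on both strands for TTCNNNGAA (the GAS element bound by STAT dimers), for GAAA, 2 bases of any kind and GAAA (the ISRE core bound by interferon regulatory factors), and for GGGA, 4 bases of any kind and CC (an NF-kappaB core). GAS matched 1 of the 16 windows, ISRE 4 and NF-kappaB 3, whereas 7.66%, 3.57% and 25.59% of 35116 RefSeq windows of that length held them. The 4 ISRE windows belong to TNFRSF1B, CASP8 and RIPK1, and 2 of them are overlapping RIPK1 windows with the same match. The NF-kappaB windows belong to FAS, CASP8 and RIPK1. No matches overlapped each other, and the windows of TNFRSF1A, FADD and CFLAR held none. One window each of 4 members is printed, the gene's strand 5' to 3', with each match in capitals, to show where these letters lie. Distances are those of the first base of a match, and the ISRE match of CASP8 runs past the start.
FAS, chr10:88990548-88990847, plus strand, NF-kappaB match GGGCGTTCCC 216 bases before the start: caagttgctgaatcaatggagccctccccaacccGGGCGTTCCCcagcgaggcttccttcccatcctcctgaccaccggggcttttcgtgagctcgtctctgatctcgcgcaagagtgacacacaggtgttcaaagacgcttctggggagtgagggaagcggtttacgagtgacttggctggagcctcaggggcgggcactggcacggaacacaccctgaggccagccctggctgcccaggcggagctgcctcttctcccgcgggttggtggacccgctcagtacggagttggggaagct
CASP8, chr2:201233213-201233512, plus strand, GAS match TTCCAAGAA, NF-kappaB match GGGCGTTCCC and ISRE match TTTCTGTTTC at 200, 77 and 3 bases before the start: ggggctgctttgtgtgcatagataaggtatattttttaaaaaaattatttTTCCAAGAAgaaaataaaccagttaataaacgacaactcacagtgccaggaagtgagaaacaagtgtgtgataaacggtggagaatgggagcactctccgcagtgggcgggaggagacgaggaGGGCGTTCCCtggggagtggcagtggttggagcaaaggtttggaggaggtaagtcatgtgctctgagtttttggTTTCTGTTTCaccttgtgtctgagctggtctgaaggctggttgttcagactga
TNFRSF1B, chr1:12166741-12167040, plus strand, ISRE match TTTCGCTTTC 10 bases before the start: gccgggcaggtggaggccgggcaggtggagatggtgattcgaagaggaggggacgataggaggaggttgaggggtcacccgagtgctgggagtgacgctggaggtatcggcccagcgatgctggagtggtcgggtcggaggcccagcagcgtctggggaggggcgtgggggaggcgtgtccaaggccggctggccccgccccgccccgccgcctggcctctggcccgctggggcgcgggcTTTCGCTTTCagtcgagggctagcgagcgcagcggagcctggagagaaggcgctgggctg
RIPK1, chr6:3068128-3068427, plus strand, ISRE match TTTCGGTTTC 67 bases before the start: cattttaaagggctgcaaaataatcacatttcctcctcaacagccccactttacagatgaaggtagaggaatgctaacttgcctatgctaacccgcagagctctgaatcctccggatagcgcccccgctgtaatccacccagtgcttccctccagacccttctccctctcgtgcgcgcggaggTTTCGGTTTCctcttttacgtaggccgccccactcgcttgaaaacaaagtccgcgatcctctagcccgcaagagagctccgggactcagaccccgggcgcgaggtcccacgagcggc
A match is a run of letters in a window and was not measured as a bound site here. CASP8, which rose 8.57-fold, had a match to each of the 3 patterns in its printed window and none in its other windows. RIPK1, with a match near the start shown, rose 1.68-fold, and TNFRSF1B was below the filter. CASP10, which rose 8.46-fold, had no window to search. TNFRSF1A rose 5.61-fold with none of the 3 patterns in its window.

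FAS, the receptor for FAS ligand, lies on the plus strand of chromosome 10 at 88990582 to 89015785 in GRCh38 (GENCODE 29). It had 44.2, 42.4 and 38.5 CPM in cytokine replicates 1, 2 and 3, against 0.477, 1.01 and 1.29 CPM in vehicle replicates 1, 2 and 3. Every cytokine library thus lay far above every vehicle library, and the vehicle libraries rested on 3, 11 and 21.5 counts. The gene rose 39.4-fold, or 5.30 on the log2 scale (SE 0.142; edgeR, adjusted p = 1.7e-23). Its printed promoter window held an NF-kappaB match but neither of the other motifs, and its other windows held no match. An increase of at least 8-fold that passed the test was found in 1.42% of all tested genes.

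ACTA2, which encodes smooth-muscle actin, runs on the minus strand at 88935074 to 88991339 and overlaps the first part of FAS by 758 bases, of which 380 are exonic in both. ACTA2 had 9.59, 8.65 and 9.78 CPM in cytokine libraries, against 1.27, 0.551 and 0.702 CPM in vehicle libraries. It too rose, by 3.61 on the log2 scale (SE 0.202; edgeR, adjusted p = 1.9e-15). Its count was 0.217, 0.204 and 0.254 of the FAS count in the cytokine libraries, against 2.83, 0.5 and 0.581 of it in the vehicle libraries. Of 6 other fibroblast and smooth-muscle markers, PDGFRB rose, with 12.1 ± 0.827 CPM in cytokine and 2.93 ± 0.229 CPM in vehicle libraries (SD, n = 3 each; edgeR, log2 change 2.01, adjusted p = 9.4e-14). THY1 fell, with 7.36 ± 0.248 CPM in cytokine and 9.29 ± 1.59 CPM in vehicle libraries (SD, n = 3 each; edgeR, log2 change -0.34, adjusted p = 0.0196). TAGLN, at 13.7 ± 0.502 CPM in cytokine and 13.5 ± 0.764 CPM in vehicle libraries (SD, n = 3 each), and MYH11 did not pass, and COL1A1 and COL3A1 stayed below 1 CPM. The list summed to 33.8 to 35 CPM in cytokine and 26.5 to 26.9 CPM in vehicle libraries, and its part in the ACTA2 result was not tested. The sources used here do not give the strand setting of the counting. The deposited counts are partly fractional, and the share of genes with a fractional count bears on that setting. It was 20.0% to 35.7% per library where exons overlap an opposite-strand gene only, 22.5% to 36.9% where no gene overlaps, and 71.0% to 74.7% where exons overlap a same-strand gene. With FAS and ACTA2 counted together, the log2 change was 4.81 with SE 0.115 (edgeR, adjusted p = 9.5e-25).

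**Figure D3:**
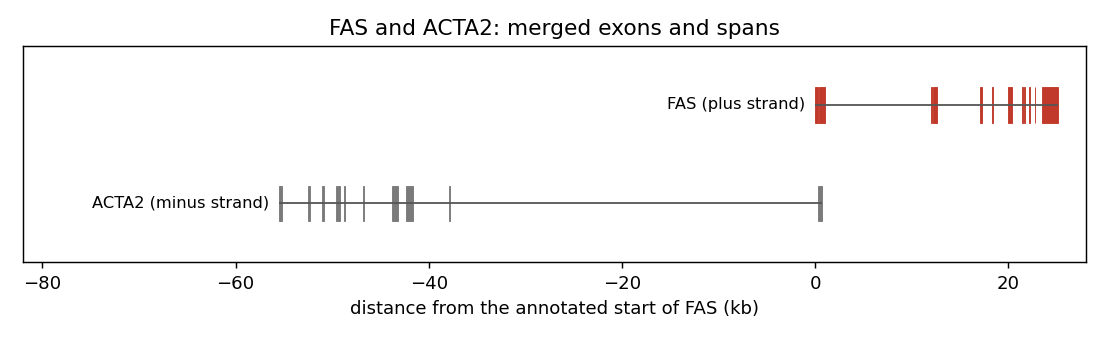
Merged exons (boxes) and spans (lines) of FAS, above, and ACTA2, below, in GENCODE 29, by distance in kb from the annotated start of FAS. The first exon of ACTA2, at the right end of its span from 0.357 to 0.757 kb, overlaps only the FAS block from 0.378 to 1.044 kb. The FAS block before that one ends at 0.324 kb, and the other exons of both genes lie apart.

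The deposited length of FAS, 75792 bases, exceeds its GENCODE 29 span by 50.6 kb, so the authors' gene model was longer than the one drawn. The end at which it was longer is not given, so its overlap with ACTA2 may differ from the one stated above. STAMBPL1, a plus-strand neighbour, had 6.64 ± 0.367 CPM in cytokine and 5.52 ± 1.15 CPM in vehicle libraries (SD, n = 3 each) and did not pass. The 3 tested genes whose profile over the 6 libraries lay closest to that of FAS, by Euclidean distance of centred log2(CPM + 0.5), were ENSG00000261618 (AC083837.1 in GENCODE 29) at 0.478, PARP14 at 0.498 and OAS1 at 0.568. PARP14, an ADP-ribosyltransferase, had 805 ± 54.8 CPM in cytokine and 20.3 ± 4.09 CPM in vehicle libraries (SD, n = 3 each). OAS1, an antiviral 2'-5'-oligoadenylate synthetase, had 188 ± 1.64 CPM in cytokine and 6.77 ± 0.647 CPM in vehicle libraries (SD, n = 3 each).

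The 2 TNF receptors differed in how many reads lay behind them, though both were scarce. TNFRSF1A, the death-domain receptor for TNF (chromosome 12, 6328757 to 6342114, minus strand), had 1.86, 1.89 and 1.30 CPM in cytokine libraries, against 0.477, 0.368 and 0.175 CPM in vehicle libraries. Groups did not overlap, although the vehicle libraries held only 3, 4.5 and 3.25 counts. TNFRSF1A rose 5.61-fold, or 2.49 on the log2 scale (SE 0.385; edgeR, adjusted p = 2.4e-06). TNFRSF1B, on the plus strand of chromosome 1 at 12167003 to 12209228, encodes the second TNF receptor, which has no death domain. It had 11, 2.5 and 12.5 counts in the cytokine libraries, against 1, 0 and 0 counts in the vehicle libraries. On rounded counts, cytokine replicate 2 and vehicle replicate 1 were alike at 0.157 and 0.159 CPM, so the groups overlapped. Unrounded, the 2.5 counts of cytokine replicate 2 lay above every vehicle library at the same scaling. Summed over the libraries, the ratio of cytokine to vehicle was 20.6 with a 95% exact counting interval of 3.38 to 847, which covers counting error only. When no filter was applied, TNFRSF1B passed with 3.96 on the log2 scale (SE 0.933; edgeR, adjusted p = 1.4e-04). In the DESeq2 fit the log2 change was 4.12 (adjusted p = 0.015). The filter also kept the gene when 1 of 3 libraries was left out, giving log2 changes of 6.09 (vehicle replicate 1 out), 3.55 (vehicle replicate 2 out) and 4.37 (cytokine replicate 2 out). Their adjusted p from edgeR was 5.5e-04, 0.00416 and 9.4e-05.

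TNFRSF10B, also known as DR5 and one of the 2 TRAIL receptors with a death domain, rose less than 2-fold. It had 24.8, 25.5 and 23.0 CPM in cytokine libraries, against 14.5, 14.5 and 11.9 CPM in vehicle libraries. The groups did not overlap, and the change was 1.84-fold, or 0.88 on the log2 scale, SE 0.0873 (edgeR, adjusted p = 7.3e-10). TNFRSF10A, or DR4, had 13, 7 and 4 counts in cytokine libraries, against 3, 5 and 6 counts in vehicle libraries, and the groups overlapped. The summed ratio for TNFRSF10A was 1.41 with an exact counting interval of 0.702 to 2.96. Even with no filter it did not pass (edgeR, log2 change 0.49 with SE 0.515, adjusted p = 0.552; range over 2 alternatives 0.552 to 0.725). Both genes lie on the minus strand of chromosome 8. RHOBTB2, which shares 67 exonic bases with TNFRSF10B on the opposite strand, had 55.1 ± 2.42 CPM in cytokine and 50 ± 0.45 CPM in vehicle libraries (SD, n = 3 each), a log2 change of 0.14 (edgeR, adjusted p = 0.0333).

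FADD, the adaptor that joins receptors to the caspases, lies on the plus strand of chromosome 11 at 70203163 to 70207390 and was the one tested member without a call. FADD had 21.4, 19.8 and 21.3 CPM in cytokine libraries, against 23.8, 17.4 and 16.8 CPM in vehicle libraries. Vehicle replicate 1, the shallowest library, was the highest of all 6, and the groups overlapped. The log2 change was 0.18 with SE 0.0937 (edgeR, adjusted p = 0.108). Of 12 alternatives that test against no change it passed only the one without vehicle replicate 1, at a log2 change of 0.30 (edgeR, adjusted p = 0.00452), and the adjusted p ranged from 0.00452 to 0.829. Against a 1.5-fold change its adjusted p was 1 (edgeR). In the authors' deposited table FADD has a log2 fold change of 0.25 and an FDR of 0.0211.

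RIPK1, a kinase that binds the TNF receptor complex, had 71.1, 70.0 and 76.5 CPM in cytokine libraries, against 42.7, 43.9 and 43.1 CPM in vehicle libraries. Spread within each group was small beside the gap between them. It rose 1.68-fold, or 0.74 on the log2 scale (SE 0.0563; edgeR, adjusted p = 2.0e-12). RIPK1 lies on the plus strand of chromosome 6 at 3063991 to 3115187.

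CFLAR, CASP10 and CASP8 stand in that order on the plus strand of chromosome 2, from 201116104 to 201287711, with gaps of 6.19 kb and 4.04 kb between them, and all 3 rose. CASP8, the main initiator caspase of death receptors and the one member with all 3 motifs in its printed window, had 8.99, 7.62 and 8.98 CPM in cytokine libraries, against 0.636, 0.827 and 1.23 CPM in vehicle libraries. That is an 8.57-fold rise without overlap, or 3.10 on the log2 scale, SE 0.196 (edgeR, adjusted p = 3.1e-14). CASP10, its close relative, had 2.66, 3.14 and 3.33 CPM in cytokine libraries, against 0.318, 0.0919 and 0.526 CPM in vehicle libraries. Its groups did not overlap either, and it rose by 3.08 on the log2 scale, SE 0.331 (edgeR, adjusted p = 3.4e-09). The vehicle libraries held 2, 1 and 9 counts of CASP10, and without vehicle replicate 3 the log2 change was 4.04 (edgeR, adjusted p = 1.1e-07; range over 12 alternatives 1.0e-18 to 1.7e-07).

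CFLAR, the catalytically inactive relative, was well counted in both groups, with 296.5 counts in the shallowest library. It had 87.9, 85.1 and 82.2 CPM in cytokine libraries, against 47.0, 47.6 and 46.9 CPM in vehicle libraries. The rise was 1.80-fold, 0.85 on the log2 scale, SE 0.0531 (edgeR, adjusted p = 2.4e-14). AC007283.1, a non-coding gene on the same strand that shares 445 exonic bases with CFLAR, had 41, 20.75 and 30.5 counts in cytokine libraries, against 8, 18 and 17 counts in vehicle libraries. It passed as well (edgeR, log2 change 0.81, adjusted p = 0.00973), and reads of the shared bases cannot be told apart. CASP8 has a deposited length of 128393 bases, 74.1 kb more than its GENCODE 29 span and more than the gap to CASP10. The end at which it was longer is not given. Whether CASP8 shares reads with its neighbours was not tested, and any such reads cannot be told apart. The 2 nearest tested genes on each side of the cluster, which lay outside the rule for named genes, did not pass: NDUFB3 and FAM126B before CFLAR with log2 changes of 0.10 and -0.00, and FLACC1 and TRAK2 after CASP8 with 0.78 and -0.05. FLACC1 came nearest to a call (edgeR, adjusted p = 0.0641), at 1.02 ± 0.0842 CPM in cytokine and 0.568 ± 0.0845 CPM in vehicle libraries (SD, n = 3 each).

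The ratio of counts between related members was compared for 4 pairs, and none passed. The largest difference was that of CFLAR over CASP8, which lay lower in all cytokine libraries. Over the summed counts CFLAR was 9.96 times CASP8 in cytokine libraries and 47.5 times CASP8 in vehicle libraries. The vehicle libraries held only 34 CASP8 counts in all, with 4, 9 and 21 in replicates 1, 2 and 3. On the log2 scale with a pseudocount of 0.5 the ratio was 3.29, 3.47 and 3.20 in cytokine libraries, against 6.04, 5.77 and 5.22 in vehicle libraries. The groups did not overlap, with a difference of -2.36 (two-sided exact permutation p = 0.1, which no comparison of 3 with 3 libraries can go below; 0.4 adjusted over 4 pairs). CASP10 over CASP8 averaged -1.47 ± 0.24 in cytokine and -1.56 ± 0.97 in vehicle libraries (SD, n = 3 each), a difference of 0.09 (exact permutation p = 1) that is well inside the vehicle spread. TNFRSF1B over TNFRSF1A averaged -1.62 ± 1.29 in cytokine and -2.48 ± 1.11 in vehicle libraries (SD, n = 3 each; exact permutation p = 0.5, adjusted 0.667). TNFRSF10B over TNFRSF10A averaged 5.46 ± 0.68 in cytokine and 4.84 ± 0.13 in vehicle libraries (SD, n = 3 each; exact permutation p = 0.3, adjusted 0.6). All 4 are ratios of counts, not corrected for gene length.

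**Figure D4:**
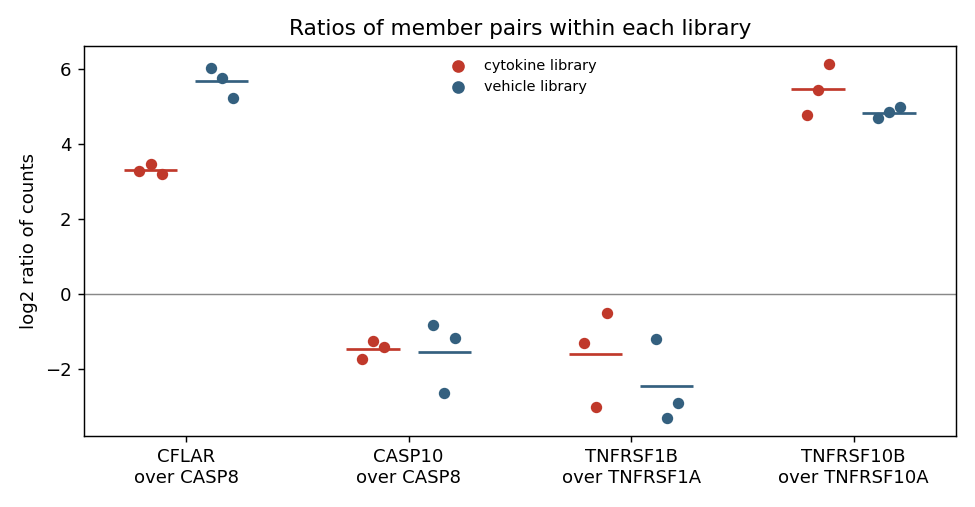
Log2 ratio of counts within each library for 4 pairs of members, with cytokine libraries left, vehicle libraries right and a bar at each group mean. CFLAR over CASP8 lies between 3.20 and 3.47 in cytokine libraries and between 5.22 and 6.04 in vehicle libraries, while the other 3 pairs overlap between groups.

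Levels of different genes were set side by side as CPM per kilobase of merged exons in GENCODE 29. In cytokine libraries the order was RIPK1 at 17.1 ± 0.822, FADD at 11.3 ± 0.489, FAS at 9.81 ± 0.683, TNFRSF10B at 4.74 ± 0.245, CFLAR at 3.78 ± 0.128 and CASP8 at 1.18 ± 0.108 CPM per kilobase (SD, n = 3 each). TNFRSF1A, CASP10, TNFRSF10A and TNFRSF1B followed, between 0.421 and 0.156 CPM per kilobase. In this group TNFRSF1A overlapped with CASP10 and TNFRSF10A with TNFRSF1B, and other neighbours in the order did not overlap. In vehicle libraries FADD at 10.5 ± 2.11 and RIPK1 at 10.2 ± 0.145 CPM per kilobase (SD, n = 3 each) came first and overlapped. TNFRSF10B at 2.64 ± 0.286 and CFLAR at 2.09 ± 0.0164 CPM per kilobase came next, followed by FAS at 0.217 ± 0.0968 (SD, n = 3 each). From FAS downward every neighbouring pair in the vehicle order overlapped. The place of CFLAR rests on its 22.5 kb of merged exons: over the mean length of its basic coding transcripts, 2.82 kb, it was highest in both groups, at 30.2 ± 1.02 CPM per kilobase in cytokine and 16.8 ± 0.131 in vehicle libraries (SD, n = 3 each). By that length FAS came second in cytokine libraries, at 26.4 ± 1.84 CPM per kilobase, and stayed at 0.586 ± 0.261 in vehicle libraries (SD, n = 3 each).

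The wider pathway was read from 54 genes in 5 lists, of which 46 were tested, 24 rose, 7 fell and 15 did not pass. Scaled by library size alone, 18 rose and 17 fell. Over all tested genes 28.3% were higher and 28.8% lower with TMM, against 16.7% higher and 49.2% lower with library size alone. The median log2 change of all tested genes was -0.02 with TMM and -0.22 with library size alone, and that of the 46 pathway genes was 0.12 with TMM.

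Of 5 ligand genes, the 2 that were tested both rose. TNFSF10, which encodes TRAIL, the ligand of TNFRSF10A and TNFRSF10B, had 88.0, 80.3 and 79.4 CPM in cytokine libraries, against 9.22, 6.34 and 7.55 CPM in vehicle libraries (edgeR, log2 change 3.46 with SE 0.0858, adjusted p = 2.4e-24). TNF, the ligand of TNFRSF1A and TNFRSF1B, had 11.6, 12 and 13.5 CPM in cytokine libraries, against 2.86, 3.49 and 4.45 CPM in vehicle libraries (edgeR, log2 change 1.68 with SE 0.134, adjusted p = 6.1e-12). FASLG, the ligand of FAS, had 1 count in cytokine replicate 2 and 0 in the other 5 libraries, and LTA and TNFSF15 reached no more than 4 counts.

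Other death receptors and decoys numbered 8, of which 5 were tested and 2 rose. TNFRSF11B, or osteoprotegerin, a secreted decoy that can bind TRAIL, had 15.5 ± 1.05 CPM in cytokine and 3.33 ± 0.578 CPM in vehicle libraries (SD, n = 3 each), a log2 change of 2.29 (edgeR, adjusted p = 2.6e-15). TNFRSF21, or DR6, had 45.8 ± 1.02 CPM in cytokine and 21.2 ± 1.31 CPM in vehicle libraries (SD, n = 3 each), a log2 change of 1.12 (edgeR, adjusted p = 1.5e-14). TNFRSF25, TNFRSF10C and TNFRSF6B did not pass, and TNFRSF10D, NGFR and EDAR reached no more than 6 counts.

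Among 19 genes of the receptor complex and its ubiquitin machinery, all tested, 13 rose and 1 fell, while library size alone gave 10 higher and 4 lower. BIRC3, or cIAP2, a ubiquitin ligase that modifies RIPK1, had 51.8, 52.5 and 56.8 CPM in cytokine libraries, against 5.88, 4.23 and 5.85 CPM in vehicle libraries (edgeR, log2 change 3.33, adjusted p = 8.6e-23). RBCK1, or HOIL-1, a subunit of the linear ubiquitin ligase, reached 960 ± 47.3 CPM in cytokine libraries against 325 ± 18.7 CPM in vehicle libraries (SD, n = 3 each; edgeR, log2 change 1.57, adjusted p = 9.4e-23). MAP3K7, or TAK1, a kinase recruited to the complex, was the one that fell, by 0.18 on the log2 scale (edgeR, adjusted p = 0.0135). That call was lost with DESeq2 (adjusted p = 0.143). In edgeR it was lost when vehicle replicate 2 or 3 was left out (adjusted p = 0.0706 and 0.0534), or cytokine replicate 1 or 3 (adjusted p = 0.0768 and 0.107). Over these and the other alternatives that test against no change, 12 in all, its adjusted p ranged from 3.5e-06 to 0.143. The call was also lost at a threshold of 0.01 and in the test against a 1.5-fold change (edgeR, adjusted p = 1).

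Downstream effectors were 9 genes, of which 7 were tested, 4 rose, 2 fell and 1 did not pass. MLKL, the pore-forming effector of necroptosis, had 341, 291 and 298 counts in cytokine libraries, against 5, 0 and 5 counts in vehicle libraries (edgeR, log2 change 6.21 with SE 0.223, adjusted p = 8.8e-20). Without vehicle replicate 1 its log2 change was 6.91 (edgeR, adjusted p = 1.4e-18; range over 12 alternatives 2.2e-195 to 3.8e-15). RIPK3, the kinase that activates MLKL, was not tested, with at most 1 count in a cytokine library and 1.67 in a vehicle library. BID, which carries the caspase-8 signal to mitochondria, and CASP6 fell by 0.37 and 0.61 on the log2 scale (edgeR, adjusted p = 4.0e-04 and 5.2e-04).

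Of 13 modulators with death or death-effector domains or that bind such proteins, 3 rose and 4 fell, while library size alone gave 0 higher and 10 lower. FAIM2, an inhibitor of FAS-induced death in neurons, fell by 0.85 (edgeR, adjusted p = 2.9e-05) and PTPN13, a phosphatase that binds FAS, by 0.53 on the log2 scale (edgeR, adjusted p = 9.8e-07). DEDD and PEA15, both death-effector-domain proteins, rose by 0.21 and 0.17 with TMM (edgeR, adjusted p = 0.00868 and 0.00785). With library size alone DEDD was at 0.01 (edgeR, adjusted p = 0.948) and PEA15 turned to -0.03 (edgeR, adjusted p = 0.653), and DEDD was also lost with DESeq2 (adjusted p = 0.0676). Their adjusted p ranged from 0.00504 to 0.948 for DEDD and from 0.00434 to 0.653 for PEA15 over 12 alternatives that test against no change. Both lost the call against a 1.5-fold change (edgeR, adjusted p = 1).

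**Figure D5:**
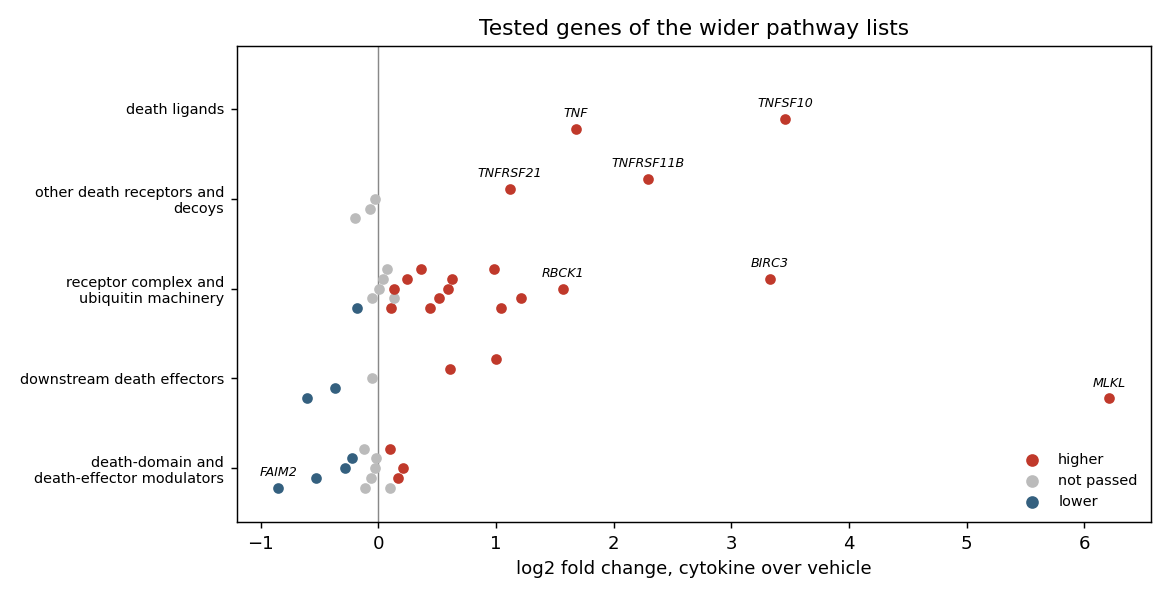
Log2 fold change of cytokine over vehicle for the tested genes of the 5 wider lists, 1 point per gene and 1 effector gene not drawn, coloured by its call with TMM scaling; the vertical scatter within a list only separates points. MLKL lies farthest to the right at 6.21, TNFSF10 and BIRC3 lie at 3.46 and 3.33, and FAIM2 lies farthest to the left at -0.85.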

How the data were processed

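Total RNA (Nucleospin miRNA kit) was made into libraries with a directional NEBNext Ultra II kit, per the labels' protocols. Among the tools named without roles are STAR 2.7.5a and HTSeq 0.12.4, with cutadapt 2.10 and the build GRCh38, per the submitters' processing notes. The authors deposited an estimated count per gene and library, not normalised and partly fractional, per the values. Beside it the authors deposited group means, a p-value with FDR, an F score, a gene length, and the mean level and fold change as log2 values, per the file headers. Columns named NT were taken as vehicle, since the other 3 carry the cytokine name and replicate numbers match the titles.

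Estimated counts were rounded to whole numbers (by R's default rounding), although the planned design named counts. Genes were filtered with filterByExpr, which left 17847 of 60611, scaled with TMM (factors 0.931 to 1.08) and tested by a quasi-likelihood fit on group (robust option) in edgeR 4.0.16 under R 4.3.3, at a threshold of 0.05. SE is the log2 change divided by the square root of F. At total counts of 5871481 to 16175364, levels under 1 CPM rest on few counts. Replicates of a group differed by a chi-square of 1.34 to 2.32 per gene, so none was counted as 1. Pair ratios used a two-sided exact permutation test (scipy 1.17.1). The scripts were tested on simulated data. Alternatives were DESeq2 1.42.0, other scalings, filters and thresholds, a replicate block and each library left out, and FAS counted with ACTA2 and another transcript length were added after seeing the data. Members and lists were chosen with earlier results of these data known. By the rule for named genes, each list gave up to 2 genes with the largest rise and 2 with the largest fall past the test and at least 1 CPM, and genes overlapping a member and the 3 closest to FAS were added. Of genes outside this rule and the marker lists, STAMBPL1, FASLG, RIPK3 and the 4 beside the chromosome 2 cluster were chosen after their values were seen. LTA, TNFSF15, TNFRSF25, TNFRSF10C, TNFRSF6B, TNFRSF10D, NGFR and EDAR also lay outside it, named as list members that did not pass or were not tested. Of the genes overlapping members, those not named above had at most 5 counts in any library or, for AL031963.3 beside RIPK1, did not pass. The motif windows come from RefSeq. The values of 1 gene that the rule names are not reported here.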

Additional observations from a re-analysis of the deposited data

How the results depend on the processing

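The 7 member calls held their direction and side of the threshold under other scalings, filters, DESeq2, the threshold of 0.01, a test against a 1.5-fold change and each library left out, with 7 to 9 members called. The higher numbers came where FADD or TNFRSF1B passed. Against 1.5-fold, 2345 of 17847 genes passed in place of 10199, and 12 of the wider pathway genes in place of 31: 12 higher and 0 lower, in place of 24 higher and 7 lower, so all 7 falls lost their call. With library size alone FADD turned to -0.02 and PEA15 to -0.03. The difference of CASP10 over CASP8 turned to -0.27 with a pseudocount of 2 and ranged from -0.46 to 0.45 with each library left out, and that of TNFRSF1B over TNFRSF1A turned to -0.12 with a pseudocount of 2. Left-out libraries gave -2.59 to -2.18 for CFLAR over CASP8, 0.31 to 1.57 for TNFRSF1B over TNFRSF1A and 0.27 to 0.95 for TNFRSF10B over TNFRSF10A. The causes were not tested. Samples of the same number were not treated as paired, since the titles only number them. Correlations of their deviations were 0.064, 0.033 and -0.073 over 13205 genes, which cannot show whether they were handled together. With the replicate block, 7 members, 28 wider pathway genes and 10111 genes in all were called. TNFRSF1A, TNFRSF1B, TNFRSF10A, FAS, CASP8 and CASP10 each had at most 4 counts in vehicle replicate 1, which limits the precision of those values.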

Other observations

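In the authors' deposited table, FAS has a log2 fold change of 5.32, CASP8 of 3.10, CASP10 of 3.06 and TNFRSF1A of 2.39. For TNFRSF1B, which the filter left untested here, the authors' deposited table gives a log2 fold change of 4.77 with an FDR of 8.5e-06, and for TNFRSF10A 0.46 with an FDR of 0.821. That table lists an FDR under 0.05 for 16.2% of its 60611 genes.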
